A study of Mus musculus with 30 samples.

Results

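The MYC family was examined as 5 genes, Myc, Mycn, Mycl, Max and Mga, chosen by name and found in the deposited m6A peak lists through the Ensembl gene identifier of each row, which a GRCm38 name table turned into a symbol. All 5 had at least 1 called bin, out of 13765 genes with a bin in any list. Together they held 52 of 62139 distinct bins, each 100 nt long, and 187 of the 204208 calls in all lists. The study profiled N6-methyladenosine (m6A) in mouse embryonic stem cells of the C57BL/6 strain, grown in serum with leukemia inhibitory factor on gelatin. The 5 lines were the wild type (WT), a METTL14 knockout (KO), and that knockout carrying wild-type METTL14 (KO+WT) or METTL14 with arginine mutations, which the labels call 5RK and 13RK (KO+5RK, KO+13RK). The 3 rescue lines therefore share the deletion of the KO line, and WT is the only line that never lost the gene. Each line had 3 lists, named as replicates 1 to 3 and each made from 1 library of RNA precipitated with an m6A antibody. Whether the replicates were separate cultures, and whether a line is 1 clone, was not stated in the labels, so a p-value measures only the spread between these libraries.

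c-MYC, N-MYC and L-MYC are transcription factors that bind DNA only as dimers with MAX, at short E-box sequences, and they drive ribosome production, metabolism and cell division. MGA is a very large protein that also dimerises with MAX, and in embryonic stem cells it anchors a variant Polycomb complex that keeps germ-cell genes silent. m6A is deposited on messenger RNA by METTL3 with METTL14, most often in long internal exons and around the stop codon, and it is known to shorten the life of many transcripts. Myc messenger RNA is a known m6A target whose stability is read by the IGF2BP proteins.

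Only the presence of a called bin was compared. The lists differed in length by line, with 22217 to 23164 bins for WT, 14187 to 17185 for KO+WT, 11174 to 13013 for KO+5RK, 9588 to 10980 for KO+13RK and 6328 to 8593 for KO. Read depth is unknown, so the missing call of a bin is not the absence of m6A, and a lower RNA level and less m6A per molecule cannot be told apart. Of 10 pluripotency genes, 8.0 ± 0 (SD, n = 3) had a bin for WT, 7.0 ± 2.0 for KO, 8.67 ± 0.577 for KO+WT, 9.33 ± 0.577 for KO+5RK and 9.0 ± 1.0 for KO+13RK. Of 10 genes of fibroblasts and other lineages, 5 (Fn1, Col1a1, Thy1, Vim and Gata4) had a bin in any list, and Col1a2, Gata6, Sox17, T and Sox1 had none. The summed bins of the 10 genes ran from 25 to 31 for WT, 1 to 4 for KO, 1 to 4 for KO+WT, 0 to 1 for KO+5RK and 0 to 2 for KO+13RK. Fn1, which encodes fibronectin, had 25.3 ± 4.04 bins for WT, 1.67 ± 1.53 for KO, 1.67 ± 1.15 for KO+WT, 0.667 ± 0.577 for KO+5RK and none for KO+13RK, and so made up most of the WT sum. The other 4 had means of 0.667 bins or fewer in every line, with 0.667 ± 0.577 for Col1a1 and Vim and 0 for Thy1 in WT. The part of these differences in the results below was not tested. A call needs both RNA and its precipitation by the m6A antibody, so the cell type and the loss of METTL14 itself could not be checked from these lists. Whether the bins called in KO carry m6A was not tested.

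Called bins were concentrated in Mga and Max. Mga held 122 of the family's 187 calls, Max 29, Mycn 21, Myc 9 and Mycl 6. Family bins per list numbered 25, 21 and 17 for WT, 8, 4 and 6 for KO, 16, 17 and 12 for KO+WT, 11, 11 and 10 for KO+5RK, and 8, 8 and 13 for KO+13RK. Most of that order came from Mga, since the other 4 genes together never exceeded 7 bins in a list. Of the 52 distinct bins, 40 were called only in lists with METTL14, 11 only in KO lists and 1 in both. That single shared bin made up 8.33% of the 12 family bins seen in KO, whereas 56.5% of the KO bins of all genes were also called in a list with METTL14.

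**Figure D1:**
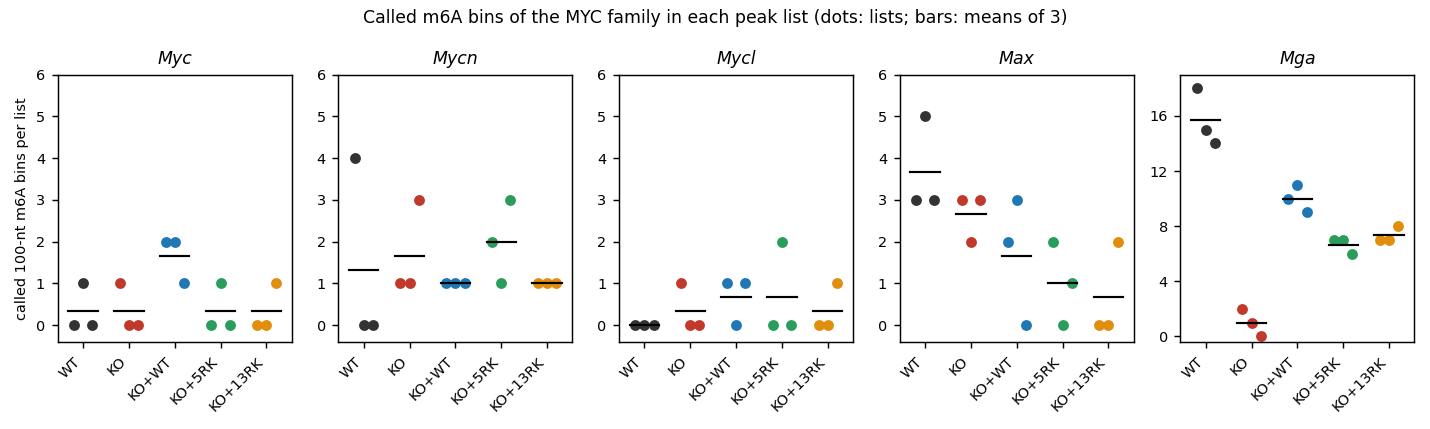
Called 100-nt m6A bins per list (y axis, count) for the 5 genes in the 5 lines, with 1 dot a list and a bar at the mean of 3 lists; the Mga panel has a longer y axis. Mga ran from 14 to 18 bins in WT to 0 to 2 in KO, while the other genes had 5 bins or fewer in every list.

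Mga, the MAX partner of the silencing complex, had 18, 15 and 14 bins in the WT lists, 2, 1 and 0 for KO, 10, 11 and 9 for KO+WT, 7, 7 and 6 for KO+5RK, and 7, 7 and 8 for KO+13RK. All 12 lists with METTL14 lay above all 3 KO lists, and the ranges of KO+5RK and KO+13RK were the only pair of lines that overlapped. Over all genes, 3.53% had every KO list below every other list and 0.24% had every KO list above. The mean was 1 ± 1 bin in KO (SD, n = 3) against 9.92 over the other 12 lists, a difference of -8.92. The two-sided exact permutation test over the 455 ways of choosing 3 of 15 lists gave p = 0.0044, or 0.125 after Benjamini-Hochberg adjustment over all genes.

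The bins of Mga fell into a few blocks on chromosome 2, plus strand (RefSeq GRCm38.p6 span 119872503 to 119970129). Which exons or transcript parts they cover was not analysed here. The last block, chr2:119963829-119964828, covered 1000 nt without a gap, with bin centres 5350 to 6250 nt before the gene end, and every one of the 12 lists with METTL14 called some part of it. No KO list did. Inside it, the bin starting at 119964129 was called in 12 of 12 lists with METTL14, with enrichment values of 0.89, 1.04 and 1.2 for WT, 1.5, 0.98 and 0.98 for KO+WT, 1.22, 1.21 and 1.19 for KO+5RK, and 1.18, 0.99 and 0.99 for KO+13RK. The authors give this enrichment score without its scale, and these values lay between percentiles 6.81 and 61.1 of their lists, so the bin was present in every list with METTL14 without being among the strongest. Its neighbours starting at 119964529, 119964229 and 119964629 were called in 11, 10 and 10 lists with METTL14 and in no KO list.

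A second Mga block, chr2:119947429-119948128, spanned 700 nt and was also touched by 12 of 12 lists with METTL14 and by no KO list. Its bins changed from list to list, and the most frequent, starting at 119947929, was called in 3 of 3 WT, 0 of 3 KO+WT, 3 of 3 KO+5RK and 2 of 3 KO+13RK lists. Another block, chr2:119916829-119917228, held the 1 family bin that KO shared with the other lines. That bin, starting at 119916929, was called in 3, 3, 3 and 2 lists of WT, KO+WT, KO+5RK and KO+13RK and in KO replicate 1. Its enrichment value lay at percentile 37.3 of the KO list and at percentiles 15.7 to 85.6 of the other lists. The first block, chr2:119903229-119903528, was called in 3 WT lists, 1 KO+WT list and 1 KO+13RK list. The other KO bins of Mga, starting at 119902629 and 119965829, were each seen in 1 KO list and nowhere else.

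**Figure D2:**
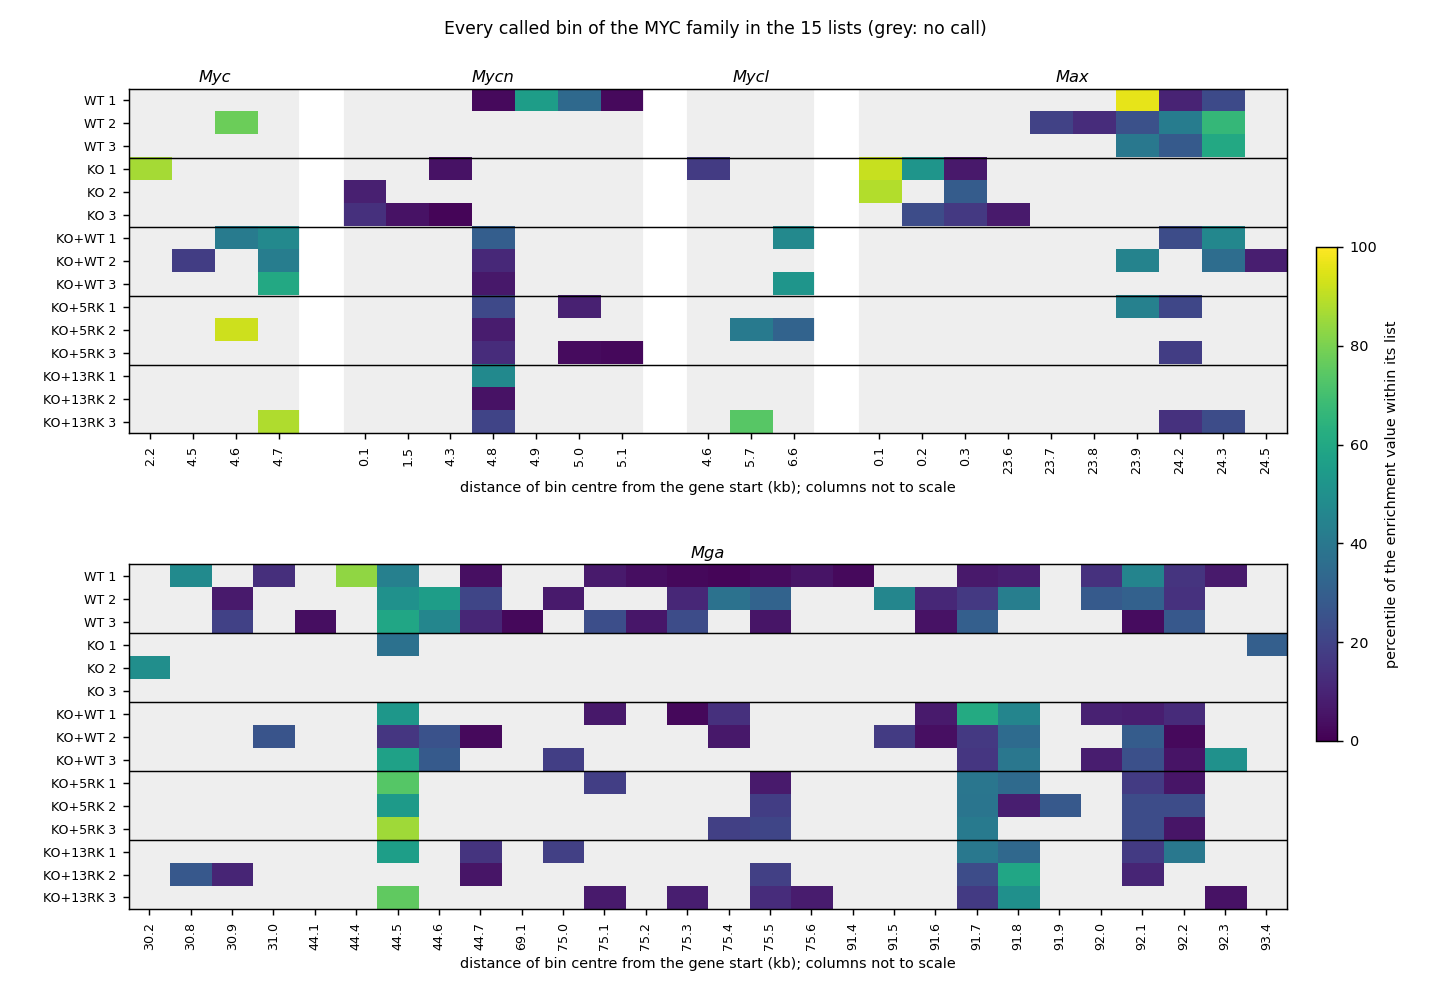
Every distinct bin of the 5 genes (columns, ordered by distance of the bin centre from the gene start in kb, not to scale) in the 15 lists (rows), coloured by the percentile of its enrichment value within its list and grey where it was not called. KO rows are nearly empty for Mga, and the KO calls of the other 4 genes fall in columns that no other line used.

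Max, the obligate partner of every MYC protein and of MGA, was called in every WT and every KO list, in bins that WT and KO did not share. It had 3, 5 and 3 bins for WT, 3, 2 and 3 for KO, 2, 3 and 0 for KO+WT, 2, 0 and 1 for KO+5RK, and 0, 0 and 2 for KO+13RK. The means were 3.67 ± 1.15 in WT and 2.67 ± 0.577 in KO, and their ranges overlapped. None of the 10 distinct Max bins was called both in KO and in another line. In the lists with METTL14 all 6 bins had centres 550 to 1350 nt before the gene end (chromosome 12, minus strand, span 76937269 to 76962323). The bins starting at 76937970, 76938070 and 76938370 were each called in 3 of 3 WT lists and in no KO list. In the rescue lines these 3 bins were called in 3, 4 and 2 of 9 lists.

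In KO, 3 adjoining Max bins, chr12:76961970-76962269, lay at the other end of the gene, 103 to 303 nt from its start, and none of the 12 lists with METTL14 called them. The bin starting at 76961970 was called in all 3 KO lists, with enrichment values of 0.82, 1.07 and 0.94. The bin starting at 76962170 was called in KO replicates 1 and 2 with values of 2.57 and 2.36, at percentiles 91.6 and 88.3 of those lists. The remaining KO bin of Max, starting at 76938670, was called in replicate 3 alone and adjoins a bin called in 1 WT list.

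The start of Max is shown because this KO block crosses the start given by RefSeq's window table. That start lies inside the gene span from which the distances above were measured. Of the 5 genes, 4 had an entry in the RefSeq GRCm38.p6 table of windows from 250 bases before to 50 bases after the start, and the windows of Max and Mycn were the 2 that a called bin overlapped. Capitals mark the bases inside a bin called in KO, 71 of 300 in Max (chr12:76962199-76962498, minus strand) and 10 of 300 in Mycn (chr12:12941787-12942086, minus strand).
Max: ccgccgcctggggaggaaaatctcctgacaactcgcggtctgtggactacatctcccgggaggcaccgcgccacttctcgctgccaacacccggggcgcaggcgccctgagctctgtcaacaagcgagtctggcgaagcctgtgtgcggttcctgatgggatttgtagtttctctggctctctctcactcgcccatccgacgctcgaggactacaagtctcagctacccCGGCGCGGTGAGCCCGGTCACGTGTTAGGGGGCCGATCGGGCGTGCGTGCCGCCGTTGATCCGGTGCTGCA
Mycn: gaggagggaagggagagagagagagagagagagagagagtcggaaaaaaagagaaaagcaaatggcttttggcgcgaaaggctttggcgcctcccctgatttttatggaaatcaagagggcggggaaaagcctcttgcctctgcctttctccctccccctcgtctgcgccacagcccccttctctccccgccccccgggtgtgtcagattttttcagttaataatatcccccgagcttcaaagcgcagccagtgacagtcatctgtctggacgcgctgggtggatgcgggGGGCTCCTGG
The capital stretch of Max held the E-box CACGTG, the sequence that MYC-MAX dimers bind, and this was the only copy in the window. The palindrome CACGTG reads the same on both strands, did not occur in the windows of Mga, Mycl or Mycn, and was present in 7.15% of the 32851 windows in the table. GGAC, a common core of the m6A consensus, was searched on the transcript's strand and did not occur among the capital bases of either gene. Over all windows, 18.9% held it on that strand in their last 50 bases, so most windows lack it there. The parts of the called bins outside the windows were not searched. These matches describe the letters of the windows only.

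Mycn, the N-MYC gene, which embryonic stem cells are known to express, had 4, 0 and 0 bins for WT, 1, 1 and 3 for KO, 1, 1 and 1 for KO+WT, 2, 1 and 3 for KO+5RK, and 1, 1 and 1 for KO+13RK. The totals of KO and the other lines overlapped, but the places did not. The bin starting at 12936997 (chromosome 12, minus strand, centre 953 nt before the gene end) was called in WT replicate 1 and in all 9 rescue lists, and in no KO list. Its enrichment values were 0.8 for WT replicate 1, 1.14, 0.92 and 0.86 for KO+WT, 1.04, 0.86 and 0.9 for KO+5RK, and 1.26, 0.78 and 1.03 for KO+13RK. WT was the exception among the lines with METTL14, since 2 of its 3 lists lacked the bin despite being longer than any rescue list. KO lists instead called bins starting at 12937497 (replicates 1 and 3), 12940297 (replicate 3) and 12941697 (replicates 2 and 3), the last of them 89 nt from the gene start. Every KO value of Mycn lay at or under percentile 13.9 of its list.

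Myc, the c-MYC gene, had few calls. It had 0, 1 and 0 bins for WT, 1, 0 and 0 for KO, 2, 2 and 1 for KO+WT, 0, 1 and 0 for KO+5RK, and 0, 0 and 1 for KO+13RK. KO+WT was the only line with a bin in every list, at 1.67 ± 0.577 bins against 0.333 ± 0.577 in each other line, and its range of 1 to 2 touched the range of 0 to 1 of the others. The calls with METTL14 formed 1 block, chr15:61989792-61990091, plus strand, with bin centres 319 to 519 nt before the gene end. The bin starting at 61989992 was called in 3 of 3 KO+WT lists with enrichment values of 1.32, 1.25 and 1.48, in KO+13RK replicate 3 with 2.34, and in no WT, KO or KO+5RK list. The neighbouring bin starting at 61989892 was called in WT replicate 2, KO+WT replicate 1 and KO+5RK replicate 2. The single KO bin, starting at 61987492, lay 2200 nt from the gene start and had an enrichment value of 2.37, at percentile 86.5 of its list.

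Mycl, the L-MYC gene, had no bin for WT, 1, 0 and 0 bins for KO, 1, 0 and 1 for KO+WT, 0, 2 and 0 for KO+5RK, and 0, 0 and 1 for KO+13RK. No line called it in all 3 lists. Its most frequent bin, starting at 123002153 on chromosome 4, plus strand, and 287 nt before the gene end, was called in KO+WT replicates 1 and 3 and in KO+5RK replicate 2. The KO bin, starting at 123000153, was not called elsewhere.

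**Figure D3:**
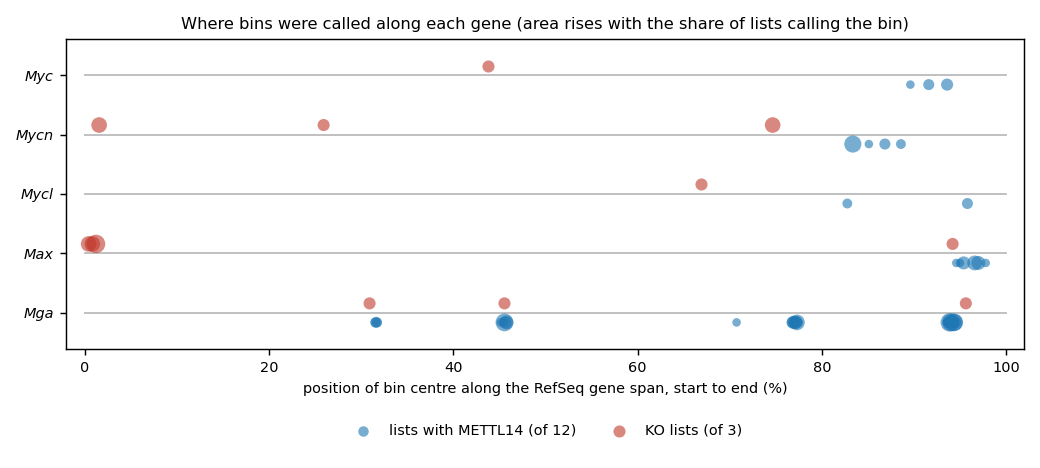
Position of each called bin along the RefSeq span of its gene (x axis, percent from start to end), for the 12 lists with METTL14 (blue) and the 3 KO lists (red); the area of a point rises with the share of those lists that called the bin. Blue points of Myc, Mycn, Mycl and Max gather toward the gene end, while red points near the start appear for Max and Mycn.

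Without Mga, the only member with a shared bin, Myc, Mycn, Mycl and Max had 15 distinct bins in the lists with METTL14 and 9 in KO, with none in common. With Mga, 8.33% of the KO bins were in common, against 56.5% over all genes. The KO side rests on few calls, with 1 call in 1 list each for Myc and Mycl, and the Max bin starting at 76938670 lies in a block, chr12:76938370-76938769, that WT, KO+WT and KO+5RK lists also called. The bins were recurrent to a moderate degree. Of the 52 family bins, 16 (30.8%) were called in 1 list, against 44.0% over all genes, and 6 (11.5%) were called in 10 or more lists, against 7.8%. Those 6 were 5 bins of Mga and 1 of Mycn. By line, 10 of the 35 bins seen in WT were called in all 3 WT lists (28.6%, against 30.5% for all genes), and 1 of 12 in KO (8.33% against 15.1%). The rescue lines called 7 of 25 bins (28.0% for KO+WT, against 22.8% for all genes), 6 of 17 (35.3% for KO+5RK, against 17.9%) and 3 of 19 (15.8% for KO+13RK, against 16.6%) in all 3 of their lists.

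Bins overlapping by at least 1 nt were merged into regions, and regions present in 3 or more lists were compared between the 3 KO lists and the other 12. Of 25 family regions, 1 was called less often in KO, the Mga bin starting at 119964129 (0 of 3 against 12 of 12 lists), and 1 more often, the Max bin starting at 76961970 (3 of 3 against 0 of 12). Each had an adjusted p of 0.0384 by Fisher's exact test, two-sided, with Benjamini-Hochberg adjustment over all 23941 regions. Over all regions, 4.69% passed with fewer KO calls and 1.04% with more, so 1 of 25 family regions is near the background in the first direction and rests on a single region in the second. A complete split of 3 against 12 lists is needed to reach this adjusted p, since its unadjusted p of 0.0021978 is the smallest the test can give. A region called in KO alone entered the test only when all 3 KO lists called it. The p of the Max bin was therefore fixed by that filter and adds nothing to its presence in those lists. Without KO replicate 1, 2 or 3 neither call held, with adjusted p of 0.224, 0.216 and 0.220 by Fisher's exact test for the Mga bin, and the Max bin then in too few lists to be tested. The Mga bin also missed the threshold at equal list length (adjusted p = 0.247 by Fisher's exact test, where the Max bin had 0.0260) and at a q-value under 0.005 (0.0961), where the Max bin was not tested. The next regions missed the threshold, with adjusted p = 0.0924 for the Mga bin starting at 119964529 and 0.165 for those starting at 119964229 and 119964629 and for the Mycn bin starting at 12936997 (Fisher's exact test). In the count of bins per gene, none of the 5 members and none of 13765 genes (0% in either direction) passed the exact permutation test after adjustment, while 1 member and 1569 genes had an unadjusted p under 0.05. At the smallest p that test can give, 606 genes were needed to pass and 383 reached it, so the lack of calls says little about any gene.

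Adjoining bins were also joined into blocks, a step added after the data had been seen. The 1000-nt and 700-nt blocks of Mga and the start block of Max then each separated KO from the 12 other lists completely. Each had an adjusted p of 0.0299 by Fisher's exact test over 16009 blocks, of which 7.35% passed, both directions together. No single bin of the 700-nt block was called in more than 8 lists (adjusted p = 0.323 by Fisher's exact test for that bin), so its complete split came only with the joining. The Max block, called in KO alone, again entered the test only because all 3 KO lists called it, so its p was fixed by that filter. The near-end blocks of Mycn (10 of 12 lists against 0 of 3) and Myc (6 of 12 against 0 of 3) did not pass, with adjusted p of 0.142 and 0.537 by Fisher's exact test. None of the remaining family blocks tested passed either.

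The arginine mutants were compared with wild-type METTL14 as 6 lists of WT and KO+WT against 6 of KO+5RK and KO+13RK. Mga had 9 to 18 bins with wild-type METTL14 and 6 to 8 with a mutant, so the groups did not overlap, which was true of 1.17% of genes in that direction and 0.0152% in the other. The means were 12.8 and 7.0, a difference of 5.83 bins, and the exact permutation test over 924 splits gave its smallest possible p, 0.0021645, with an adjusted p of 0.183. Max had 2.67 bins with wild-type METTL14 and 0.833 with a mutant, with overlapping lists (exact permutation p = 0.0649, adjusted p = 0.484). Myc had 1.0 and 0.333 bins, Mycn 1.17 and 1.5, and Mycl 0.333 and 0.5. No member and no gene of 13183 passed (0% in either direction), against 1 member and 1397 genes at an unadjusted p under 0.05 in this exact permutation test. At its smallest p, 571 genes were needed to pass and 156 reached it, so this too says little about any gene. Of 24 family regions, none passed Fisher's exact test (0% of 21832 regions in either direction) or had an unadjusted p under 0.05, against 862 regions over all genes. Here 946 regions were needed at the smallest p and 138 reached it.

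Most single Mga regions were called in more lists with wild-type METTL14 than with a mutant. The widest splits, picked out after their values were seen, were those of the bins starting at 119917029, 119964029 and 119964429, each called in 4 of 6 lists with wild-type METTL14 and in 0 of 6 with a mutant (adjusted p = 0.563 by Fisher's exact test). Among the Mga regions tested, only the bin starting at 119947929 went the other way, with 3 against 5 lists. Frequent Mga bins, starting at 119964129, 119916929 and 119964629, were called in 6 against 6, 6 against 5 and 6 against 4 lists. KO+WT, at 9 to 11 Mga bins, did not overlap KO+5RK at 6 to 7 or KO+13RK at 7 to 8, and such a gap was found for 3.5% and 6.89% of genes, with 0.829% and 0.609% in the other direction. WT also had more Mga bins than KO+WT, 14 to 18 against 9 to 11, as had 9.78% of genes.

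The WT lists, with the most Mga bins, were the longest, and the KO lists, with the fewest, were the shortest. When each list was reduced to its 6328 bins of smallest p, the length of the shortest KO list, Mga had 2.67 bins for WT (1 to 4), 3.0 for KO+WT (2 to 4), 3.67 for KO+5RK (3 to 4), 4.0 for KO+13RK (3 to 6) and 1.0 for KO (0 to 2). The difference between wild-type and mutant METTL14 then reversed to -1.0 bin. At a q-value under 0.005 the order was as deposited, at 8.67 bins for WT, 4.67 for KO+WT, 2.67 for KO+5RK, 3.0 for KO+13RK and 0.333 for KO. The KO mean of Mga stayed the lowest of the 5 lines under both settings. At equal length the KO range overlapped that of WT and touched that of KO+WT.

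**Figure D4:**
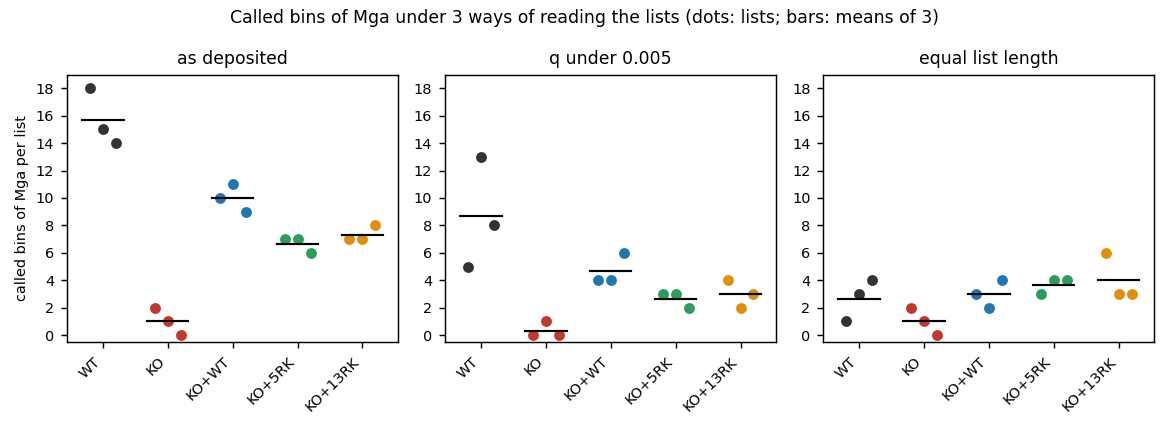
Called bins of Mga per list (y axis, count) as deposited, with q under 0.005, and with each list reduced to its 6328 bins of smallest p; dots are lists and bars the means of 3. The WT mean exceeds the means of the rescue lines in the first 2 panels, although with q under 0.005 the lists of WT (5 to 13) and KO+WT (4 to 6) overlap. At equal length KO+13RK has the highest mean, 4.0, and KO the lowest, 1.0.

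Line by line, a region present in 3 of 3 lists of one line and 0 of 3 of the next counted as lost, and the opposite pattern as gained. With 3 against 3 lists no permutation p can fall below 0.1, so these counts carry no test. From WT to KO, 9 of the 10 family regions that could be lost were lost, 6 in Mga and 3 in Max, against 79.9% of such regions over all genes. The 1 region that could be gained, the Max bin starting at 76961970, was gained, against 25.8%. From KO+WT to KO, which shares the KO lists with the previous comparison, 6 of 7 were lost (4 in Mga and 1 each in Mycn and Myc), against 70.9%, and the same Max bin was the 1 of 1 gained, against 23.3%. From WT to KO+WT, the Mga bin starting at 119947929 was the 1 of 10 lost (15.3% over all genes), and the Myc bin starting at 61989992 was the 1 of 7 gained (2.34%). Between KO+WT and KO+5RK those same bins changed in the opposite direction, with the Myc bin as the 1 of 7 lost (7.48%) and the Mga bin as the 1 of 6 gained (2.97%). These comparisons share the KO+WT lists. Between KO+WT and KO+13RK, 0 of 7 family regions were lost (16.8%) and 0 of 3 were gained (2.61%). No member was lost or gained as a whole gene in any of the 5 comparisons, where the shares of all genes lost were 31.5%, 25.7%, 5.84%, 2.8% and 7.19% in the order above, and of those gained 4.89%, 5.67%, 1.47%, 1.68% and 1.41%.

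The family's calls were of low strength within their lists. The median percentile of the enrichment value was 20.6 over the 187 calls, from 1.25 to 96.2. Myc bins were few and comparatively strong, with a median percentile of 60.4, followed by Mycl at 44.0, Max at 24.9, Mga at 18.3 and Mycn at 8.88. By q-value, 81 of the 187 calls (43.3%) were under 0.005, against 49.1% of all calls, and in KO 4 of 18. The strongest call in the family was the Max bin starting at 76938370 in WT replicate 1, at an enrichment value of 2.76.

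The genes whose number of bins per list ran most like each member's over the 15 lists were found by Pearson's r among 7723 genes with a bin in 5 or more lists, a description in which all points share the length of their lists. For Mga these were Ehbp1 (r = 0.963), Adgrl1 (0.957) and Cnnm2 (0.956), and Ehbp1 had 7.33 bins for WT, 0 for KO, 4.33 for KO+WT, 2.33 for KO+5RK and 2.67 for KO+13RK. For Max they were Gtf3c1 (0.883), Bsdc1 (0.872) and Tcp1 (0.828), where Gtf3c1 had 4.0, 1.33, 1.33, 0.667 and 0.333 bins in the same order of lines. For Myc they were Srebf1 (0.809), Tmem30b (0.804) and Zkscan8 (0.797), for Mycn Tnks2 (0.823), Mocs2 (0.779) and Eif2d (0.779), and for Mycl Nedd1 (0.926), Nle1 (0.847) and Natd1 (0.794). The low counts of Myc, Mycn and Mycl leave these last likenesses resting on a handful of calls.

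Around the family, 77 genes of the MYC network were taken in 7 lists, of which 75 had a bin in any list of peaks. None passed the exact permutation test of bins per gene for KO against the 12 other lists or for wild-type against mutant METTL14 (0% of all genes in either test). As given above, too few genes reached the smallest p of either test for any to pass, so this says little about the network. At an unadjusted p under 0.05, 8 of the 75 (10.7%) had fewer bins in KO and 0 more, against 9.42% and 1.98% of all genes. In the comparison of wild-type with mutant METTL14, 18 of 74 (24.3%) had more bins with the wild-type protein and 0 fewer, against 10.4% and 0.220% of all genes. Of these 18, 7 were among the 10 genes of MYC protein turnover (70%), while the other lists ran from 5.88% to 33.3%. Lists with wild-type METTL14 were longer than those with a mutant, and these genes were not examined at equal list length. Among the 57 network genes called in every WT list, 6 were lost in KO, against 31.5% of all genes, and 0 of the 31 called in every KO list were gained, against 4.89%. Over all genes, 5631 were called in every WT list and 1923 in every KO list, so lower numbers in KO are not particular to the network. From KO+WT to KO+5RK, 0 of 44 were lost and 0 of 40 gained (2.8% and 1.68% of all genes), and from KO+WT to KO+13RK, 1 of 44 was lost and 1 of 37 gained (7.19% and 1.41%).

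Among the MYC cofactors (11 genes), 10.3 ± 0.577 had a bin for WT, 6.67 ± 1.53 for KO, 9.0 ± 1.0 for KO+WT, 9.0 ± 0 for KO+5RK and 8.0 ± 1.73 for KO+13RK. Hcfc1, whose protein HCF-1 binds MYC and WDR5, had 6.67 ± 1.53 bins for WT, 0 in every KO list, 4.33 ± 0.577 for KO+WT, 4.33 ± 0.577 for KO+5RK and 3.67 ± 0.577 for KO+13RK, with an adjusted p of 0.0790 by the exact permutation test for KO against the rest. That is the smallest adjusted p in that test, and it was shared by the 383 genes that reached the smallest p, Kat2a of the same list among them. Ruvbl1, an ATPase of MYC-bound chromatin complexes, had 1.0 ± 0 bin for WT, 0 for KO, 0.667 ± 0.577 for KO+WT and 0.333 ± 0.577 for each mutant. Among the genes that control Myc RNA or transcription (7 genes), 7.0 ± 0 had a bin for WT, 4.33 ± 0.577 for KO, 6.33 ± 0.577 for KO+WT, 6.0 ± 1.0 for KO+5RK and 6.0 ± 0 for KO+13RK. Ctcf, the insulator protein, had 4.0 ± 0 bins for WT, 0 for KO, 2.0 ± 1.0 for KO+WT, 0.333 ± 0.577 for KO+5RK and 1.0 ± 0 for KO+13RK. Igf2bp3, the gene of an m6A reader that binds Myc RNA, had 2.33 ± 1.53 for WT, 0 for KO, 1.33 ± 0.577 for KO+WT and 1.0 ± 0 for each mutant. Each of these 2 genes and of the 2 cofactors was thus called in 3 of 3 WT lists and 0 of 3 KO lists.

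Of the genes for MYC protein turnover (10 genes), 9.0 ± 0 had a bin for WT, 7.0 ± 1.0 for KO, 8.33 ± 1.15 for KO+WT, 7.33 ± 1.15 for KO+5RK and 8.0 ± 1.0 for KO+13RK. The median difference between KO and the other lists was -2.04 bins for this list, -0.583 for the cofactors, -0.417 for the metabolism and cell cycle targets, -0.375 for the MGA complex, -0.333 for the ribosome targets and -0.167 each for the MAX partners and Myc RNA control. It was -0.0833 for the MYC family itself and -0.167 for all genes with a bin. Of the other MAX partners and the MLX arm (8 genes), 4.0 ± 0 had a bin for WT, 2.67 ± 0.577 for KO, 2.67 ± 0.577 for KO+WT, 3.0 ± 1.0 for KO+5RK and 1.67 ± 1.15 for KO+13RK. Mlx, the MAX-like dimer partner of the glucose-sensing MondoA and ChREBP proteins, had 0 bins in KO+WT and 2.33 ± 1.15 in KO+13RK and was the 1 gene gained there. It had 1.33 ± 0.577 for KO, 0.667 ± 1.15 for KO+5RK and 0.333 ± 0.577 for WT. Of the subunits of the MGA Polycomb complex (11 genes), 7.67 ± 0.577 had a bin for WT, 6.67 ± 1.53 for KO, 7.67 ± 0.577 for KO+WT, 6.0 ± 1.0 for KO+5RK and 5.67 ± 1.15 for KO+13RK. Rybp, its RING1-binding subunit, had 2.33 ± 0.577 bins for WT, 1.0 ± 0 for KO and KO+WT, 0.333 ± 0.577 for KO+5RK and 0 for KO+13RK, where it was the 1 gene lost. Of the 7 subunits called in every WT list, 0 were lost in KO, against 31.5% of all genes.

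Of the MYC targets for ribosomes and the nucleolus (13 genes), 11.7 ± 1.15 had a bin for WT, 10.3 ± 1.53 for KO, 10.3 ± 1.15 for KO+WT, 9.0 ± 2.0 for KO+5RK and 10 ± 0 for KO+13RK, so the rescue lines were no higher than KO. Nolc1, a nucleolar phosphoprotein, was lost in KO with 1.33 ± 0.577 bins for WT and 0 in all 12 other lists. Of the targets for metabolism and the cell cycle (17 genes), 13.0 ± 1.73 had a bin for WT, 9.33 ± 2.08 for KO, 12 ± 0 for KO+WT, 11.3 ± 0.577 for KO+5RK and 9.67 ± 1.53 for KO+13RK. Tert, the catalytic subunit of telomerase and a MYC target, had 3.33 ± 1.53 bins for WT, 0 for KO, 1.33 ± 0.577 for KO+WT, 1.0 ± 1.0 for KO+5RK and 0.667 ± 0.577 for KO+13RK. For comparison, the pluripotency genes included Tbx3, with 4.0 ± 0 bins for WT, 0 for KO, 4.33 ± 0.577 for KO+WT, 4.0 ± 1.0 for KO+5RK and 2.33 ± 0.577 for KO+13RK. Dppa3 had 0 for WT, 1.67 ± 0.577 for KO, 1.0 ± 1.0 for KO+WT, 1.67 ± 0.577 for KO+5RK and 0.667 ± 0.577 for KO+13RK, so lines with METTL14 carried its calls as well as KO.

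**Figure D5:**
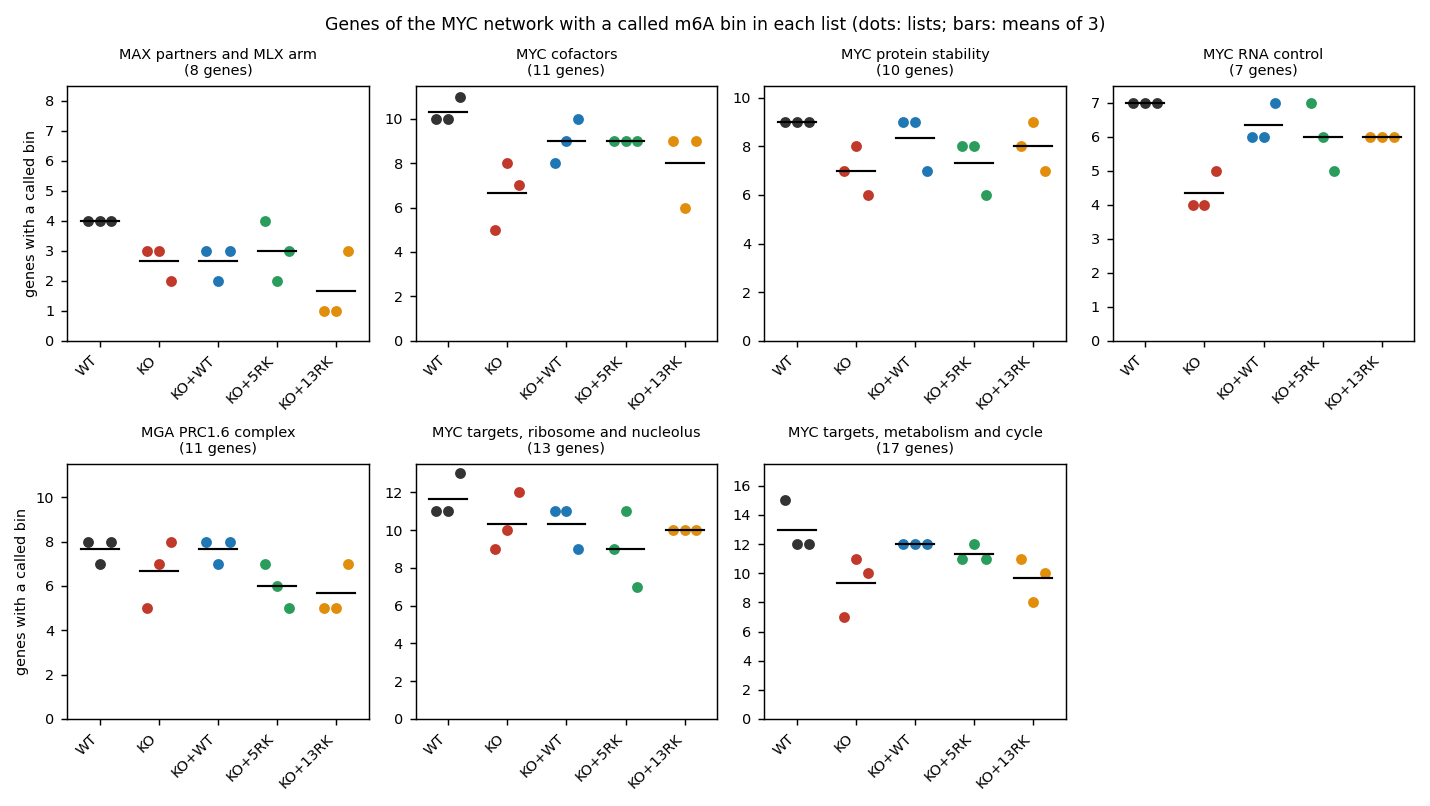
Number of genes with a called bin in each list (y axis, count, with the axis reaching the size of the gene list) for 7 groups of MYC network genes in the 5 lines; dots are lists and bars the means of 3. The WT mean is the highest or equal highest in all 7 groups, and the KO mean lies below it in all 7. Examples are 6.67 against 10.3 of 11 cofactors and 4.33 against 7.0 of 7 genes of Myc RNA control. WT lists are the longest and KO lists the shortest, and the fall is not particular to these groups. Over all genes, 5631 were called in every WT list and 1923 in every KO list, against 57 and 31 in the 7 groups.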

How the data were processed

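The authors deposited 1 peak list for each of the 15 m6A-precipitated libraries of 5 lines, without a header. The 15 input libraries were left out. Messenger RNA was fragmented and precipitated with an anti-m6A antibody before stranded library preparation, per the labels' protocols. STAR 2.5.3a, kallisto 0.43.0 and GRCm38 are named, without roles, per the submitters' processing notes, and beyond the word clam in the names of the lists, neither labels nor headers name a peak caller. Each row holds the authors' enrichment score and their deposited p-value and q-value for a 100-nt bin of a gene. The score's scale is not stated, so it was ranked within a list, and levels between lists were not tested; 1 alternative applied a single minimum to all lists.

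Symbols matched 99.7% of 13765 genes. Presence of bins was compared with exact permutation tests of bins per gene and Fisher's exact tests of regions, both two-sided, with Benjamini-Hochberg adjustment over all features and a threshold of 0.05 (Python 3.11.15, scipy 1.17.1, pandas 2.3.3). Tests were tried on simulated data in which every change was complete and lists did not differ in length by line. Directions were recovered there, which checks the code but not the power to find smaller changes. Distances to gene ends are from bin centres to RefSeq GRCm38.p6 spans. Alternatives were a stricter q-value, an enrichment minimum, equal list length, other merging of bins, 2 of 3 lists for presence, a replicate block and leaving out each list. Members, gene lists and tests were chosen with earlier results of these data known. The text names the 5 members, up to 4 genes of each MYC, pluripotency or lineage list past a test and up to 4 lost or gained, and the 3 genes most like each member.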

Additional observations from a re-analysis of the deposited data

How the results depend on the processing

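The precision of every result is limited by 3 lists a line, unknown depth and list lengths that differ by line. A split of 3 KO lists against 12 leaves the region test little room, so its 2 family calls ended under several settings. Of the results that answer a comparison, 211 alternatives kept the value within 1.5 times and 71 moved it. Many of those kept were counts of 0 that stayed 0. These came from both tests of bins per gene and the region test of the mutants, where too few features reached the smallest p. Of single genes and regions, 386 did not reverse and kept their side of the threshold, 17 reversed and 7 lost their call. A difference that became 0 counted among the 386, so these totals say little about robustness. Family regions called in KO against 12 lists numbered 0 at a q-value under 0.005, 0 with an enrichment minimum of 1.36 (the median of all calls), 1 at equal list length and 0 to 3 with 1 list left out. All regions called numbered 658 at a q-value under 0.005, 0 at the enrichment minimum and 0 to 1577 with 1 list left out, with 0 without any 1 KO list.

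The replicate numbers did not pair the lists. The correlation of deviations between same-numbered lists of 2 lines ran from -0.690 to 0.469 over 30 pairs (median -0.0453), and 4 of 15 lists correlated best with their own number. With the replicate number as a block, 0 family regions and 0 of all regions passed an exact permutation test within blocks (adjusted p = 0.140 for the Mga bin starting at 119964129 and the Max bin starting at 76961970), and no gene passed it either.

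Single members with few bins changed direction. For KO against the 12 lists, the difference in bins per list became 0.25 for Myc, -0.75 for Mycn and -0.0833 for Max at a q-value under 0.005, -0.0833 for Mycn at the enrichment minimum, and 0.25 for Myc and 0.25 for Mycl at equal length. With 1 list left out, it ran from -0.417 to 0.0833 for Mycl and from -0.333 to 0.667 for Mycn. For wild-type against mutant METTL14 it became -0.167 for Myc at a q-value under 0.005 and at equal length, 0.167 for Mycn at the enrichment minimum, and -1.0 for Mga at equal length, and ran from -0.3 to 0.133 for Mycl with 1 list left out. The share of lists with the Mga bin starting at 119916929 differed by -0.167 at the enrichment minimum and -0.333 at equal length.

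Counts of lost and gained family regions moved as follows. From WT to KO, lost regions numbered 3 at a q-value under 0.005, 0 at the enrichment minimum, 0 at equal length, 4 with adjacent bins merged, 17 at 2 of 3 lists and 9 to 12 with 1 list left out, and gained regions 0, 0 and 5 at the stricter q-value, the enrichment minimum and 2 of 3 lists, and 1 to 3 with 1 list left out. From KO+WT to KO, lost regions numbered 3, 0, 1 and 12 at the stricter q-value, the enrichment minimum, equal length and 2 of 3 lists and 6 to 9 with 1 list left out, and gained regions 0, 0 and 5 and 1 to 3. From WT to KO+WT, the 1 lost region became 0 at the stricter q-value, the enrichment minimum, equal length and adjacent merging, 3 at 2 of 3 lists and 1 to 3 with 1 list left out, and the 1 gained became 0 at the enrichment minimum, equal length and adjacent merging, 2 at 2 of 3 lists and 1 to 2 with 1 list left out. From KO+WT to KO+5RK, both became 0 under each stricter setting, equal length and adjacent merging, 5 lost and 2 gained at 2 of 3 lists, and 1 to 3 lost and 1 to 2 gained with 1 list left out. From KO+WT to KO+13RK they became 5 lost and 1 gained at 2 of 3 lists, and 0 to 2 lost and 0 to 1 gained with 1 list left out. Apart from the construction of each setting, the cause was not tested.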
